A study of Mus musculus with 12 samples.

Results

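Pericytes and smooth muscle cells form the outer, contractile layer of blood vessels and are together called mural cells. The 10 genes described here are widely used to mark them. Acta2, Tagln, Myh11 and Cnn1 encode parts of the smooth muscle contractile apparatus. Rgs5, Pdgfrb, Cspg4 and Abcc9 are used mainly to mark pericytes, and Des and Mcam are shared by both kinds of cell. The genes were taken by symbol from an expression table of 23234 genes, and all 10 were found in it as single rows.

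The study measured gene expression in mouse pancreatic islets, the hormone-secreting cell clusters of the pancreas, before and after they were placed in inguinal subcutaneous white fat, which lies beneath the skin at the groin. The groups were islets taken 60 days after transplantation (day 60 grafts), islets taken 120 days after (day 120 grafts) and isolated islets that had not been transplanted, with 4 libraries each. All 3 groups are labelled as C57BL/6, with no genetic change or drug given. RNA of 10 ng per sample was made into cDNA with a low-input kit, and libraries were amplified for 15 PCR cycles. The labels number the libraries of a group 1 to 4 without saying whether separate animals or islet preparations were used. The p-values therefore reflect library-to-library spread, some of which may be technical.

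Pericytes share a basement membrane with the endothelium and are drawn to new vessels by platelet-derived growth factor B, which endothelial cells release and which the receptor Pdgfrb senses. Arterioles and larger vessels are wrapped by smooth muscle cells with more of the contractile proteins. Islets are densely supplied with capillaries that carry pericytes, isolation cuts them off from the circulation, and a graft is supplied again by vessels of the recipient and of the islets. In bulk RNA of this kind, fewer cells of a type and less RNA per cell cannot be told apart.

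Values are FPKM, fragments per kilobase of gene and per fixed number of mapped fragments, as the authors deposited them. Their sum per library ran from 396769 to 786366, and read counts, which would give the depth, are not part of the table. The endocrine gene list was high in every library, with a sum of 39166 to 80656 FPKM in day 60 grafts, 56768 to 69059 in day 120 grafts and 51482 to 60084 in isolated islets, so that islet RNA was present throughout. The acinar genes of the exocrine pancreas summed to 5770, 50535, 13525 and 65481 FPKM in isolated islets 1 to 4. Their sum was 7.55 to 20.5 FPKM in day 60 grafts and 4.18 to 9.64 in day 120 grafts. Exocrine RNA thus took a large and varying share of the isolated islet libraries. A scaling without hormone and acinar genes is among the alternatives below. A pair of libraries stood apart over all genes. Day 60 graft replicate 1 lay at -89.0 on the second principal component, against -4.61 to 21.7 for the other day 60 grafts. Isolated islet replicate 1 lay at -46.0 on the first component, against -91.3 to -86.1 for the other isolated islets and 21.2 to 89.9 for the grafts.

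Promoters of 7 of the 10 genes were found in RefSeq (mouse build GRCm38.p6), each with 250 bases before and 50 bases after the annotated start. Those of Acta2 and Rgs5 are shown because these genes had the highest median levels of the 10 in each of the 3 groups and because they varied differently among the grafts. Capitals mark elements found by a letter search on both strands. The search covered the CArG box, the element bound by serum response factor, with at most 1 mismatch, the MCAT element GGAATG and the TATA element TATAA.
Acta2, chr19:34255324-34255623, minus strand: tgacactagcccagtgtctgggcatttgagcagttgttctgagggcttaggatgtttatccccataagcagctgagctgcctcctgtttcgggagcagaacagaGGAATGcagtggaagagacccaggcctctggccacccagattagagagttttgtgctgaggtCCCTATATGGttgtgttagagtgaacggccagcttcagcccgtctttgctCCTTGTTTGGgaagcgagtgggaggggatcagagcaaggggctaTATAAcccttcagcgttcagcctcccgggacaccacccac
Rgs5, chr1:169655251-169655550, plus strand: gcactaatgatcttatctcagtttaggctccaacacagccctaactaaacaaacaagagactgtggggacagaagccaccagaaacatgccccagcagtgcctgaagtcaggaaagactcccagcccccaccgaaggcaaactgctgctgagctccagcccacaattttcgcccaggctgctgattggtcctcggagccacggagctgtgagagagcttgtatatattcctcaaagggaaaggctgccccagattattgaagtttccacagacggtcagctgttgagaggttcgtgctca

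In the Acta2 promoter the CArG letters with 1 mismatch, CCCTATATGG and CCTTGTTTGG, began 84 and 34 bases before the annotated start and the MCAT letters 146 bases before it. The Rgs5 promoter held none of the elements, and neither did those of Cnn1, Des and Mcam. In the Cspg4 promoter CArG letters with 1 mismatch began at overlapping places 238 and 237 bases before the start. The Abcc9 promoter held the MCAT letters 219 bases before it. The elements thus did not divide the contractile genes from the pericyte genes. No promoter of the 7 genes held a CArG box without a mismatch. Such a box was found in 1.63% of the 32851 promoters in the table, CArG letters with 1 mismatch in 19.9%, MCAT letters in 14.7% and TATAA in 24.9%. A match of letters is a description and not a bound site.

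Mural cell genes were readily detected in islets before transplantation. By their medians in isolated islets, Rgs5 (19.0 FPKM) and Acta2 (12.5 FPKM) led, followed by Mcam (6.38 FPKM), Pdgfrb (3.95 FPKM) and Tagln (3.08 FPKM). The libraries of Rgs5 and Acta2 overlapped, as did those of Pdgfrb and Tagln, whereas each of the steps from Acta2 to Mcam and from Mcam to Pdgfrb separated all 4 libraries. In day 60 grafts the order by medians was Rgs5 (31.8 FPKM), Acta2 (30.9 FPKM), Mcam (17.2 FPKM) and Tagln (16.5 FPKM), with overlap between all of these neighbours. In day 120 grafts it was Rgs5 (32.3 FPKM), Acta2 (17.8 FPKM), Mcam (11.1 FPKM) and Tagln (10.49 FPKM). Tagln thus stood above Pdgfrb by its median in both graft groups and below it in isolated islets, where their libraries overlapped.

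**Figure D1:**
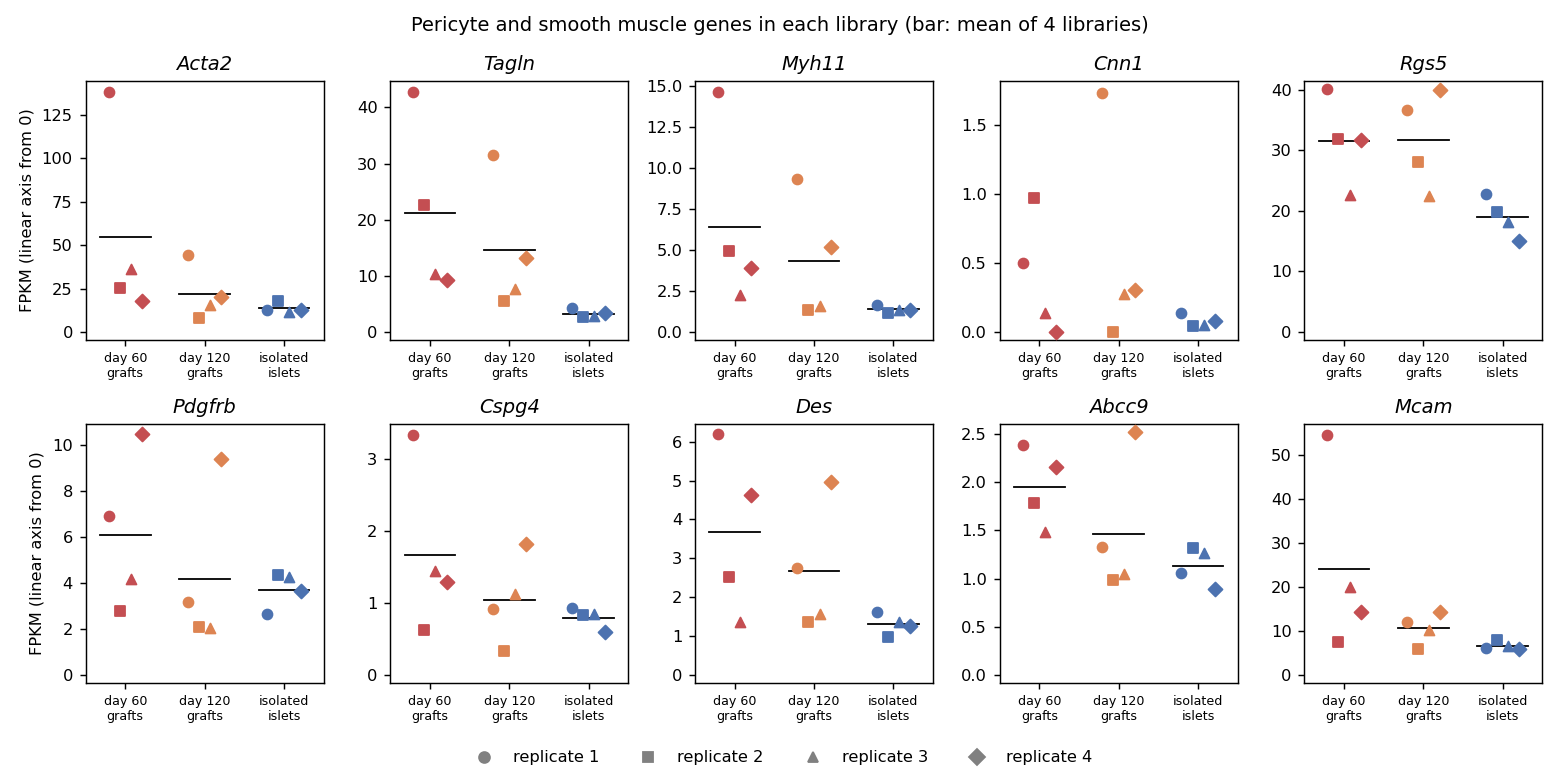
FPKM of the 10 genes in each of the 12 libraries, on linear axes that start at 0 and differ between panels; symbols give the replicate number and the bar is the mean of 4 libraries (no mean is drawn for Cnn1, which is listed at 0 in 2 libraries). Tagln is above all isolated islets in all 8 grafts, while Acta2 and Mcam each have a single day 60 graft, replicate 1, far above the others at 138 and 54.5 FPKM.

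Among the contractile genes, Tagln had the largest log2 change of the 9 tested genes at both times. Tagln encodes transgelin, an actin-binding protein of smooth muscle. It was measured at 42.7, 22.6, 10.4 and 9.33 FPKM in day 60 grafts 1 to 4, at 31.5, 5.59, 7.73 and 13.3 FPKM in day 120 grafts 1 to 4 and at 4.25, 2.71, 2.77 and 3.38 FPKM in isolated islets 1 to 4. All 8 grafts exceeded all 4 isolated islets. The mean was 21.3 ± 15.5 FPKM in day 60 grafts, 14.5 ± 11.8 in day 120 grafts and 3.28 ± 0.715 in isolated islets (SD, n = 4 each). By limma on log2(FPKM + 1), adjusted over the 13433 genes tested, Tagln rose at day 60 by log2 2.14 (SE 0.503, adjusted p = 0.00569) and at day 120 by log2 1.59 (SE 0.503, adjusted p = 0.0315). The added 1 makes such changes smaller for genes at low levels. The day 60 call was kept in all 23 alternative settings, and the day 120 call in 17 of 23. At day 120 it was lost without isolated islet replicate 2, 3 or 4 (adjusted p = 0.0809, 0.0793 and 0.0730) without day 120 graft replicate 1 (0.0766) or 4 (0.0720) and with quantile normalization (log2 1.26, adjusted p = 0.0788).

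Exons of Tagln overlap those of Pcsk7, a proprotein convertase gene on the opposite strand. Pcsk7 stood at 6.39 ± 0.722 FPKM in day 60 grafts, 6.10 ± 0.842 in day 120 grafts and 3.68 ± 0.234 in isolated islets (SD, n = 4 each). It rose by log2 0.65 (adjusted p = 0.00475) and 0.59 (adjusted p = 0.0129) in the limma test. Whether the counting used strand is not stated, so reads of the 2 genes cannot be told apart where they overlap. Pcsk7 ran from 5.13 to 7.27 FPKM over the grafts, a much narrower range than that of Tagln.

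Acta2 encodes smooth muscle alpha-actin. Its values were 138, 25.3, 36.4 and 18.0 FPKM in day 60 grafts 1 to 4, 44.3, 7.94, 15.5 and 20.0 FPKM in day 120 grafts 1 to 4 and 12.4, 18.1, 11.6 and 12.5 FPKM in isolated islets 1 to 4. Graft 1 of each time stood highest, and both graft groups overlapped with isolated islets. The mean was 54.4 ± 56.2 FPKM at day 60, 21.9 ± 15.7 at day 120 and 13.7 ± 3.02 in isolated islets. The log2 change was 1.47 at day 60 (95% interval 0.24 to 2.71, adjusted p = 0.0519) and 0.42 at day 120 (-0.81 to 1.66, adjusted p = 0.584), so neither passed. At day 60 it passed in 6 of 23 alternatives, with the lowest adjusted p with array weights (log2 1.23, adjusted p = 0.00428). It also passed with 0.1 in place of 1 as the added value (adjusted p = 0.0474), without day 60 graft replicate 2 (0.0468) or 4 (0.0224) and without day 120 graft replicate 1 (0.0379) or 2 (0.0422). Without day 60 graft replicate 1 the day 60 value was 0.88 (adjusted p = 0.114). Its coding sequence is nearly the same as that of the other actin genes, so reads could be divided among them. The skeletal actin Acta1 ran from 1.89 to 41.3 FPKM over all libraries, and Actg2, the other smooth muscle actin, reached no more than 0.684 FPKM. The actin genes Actb and Actg1 stood far above Acta2, at 255 to 1263 and 155 to 1298 FPKM over all libraries. Actb was highest in day 60 graft replicate 1, as was Acta2. How many reads were shared among these genes was not tested.

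Myh11, the smooth muscle myosin heavy chain, had 14.6, 4.95, 2.23 and 3.89 FPKM in day 60 grafts 1 to 4. It had 9.32, 1.35, 1.58 and 5.18 FPKM in day 120 grafts 1 to 4, against 1.66, 1.13, 1.36 and 1.37 FPKM in isolated islets 1 to 4. All day 60 grafts were above all isolated islets, and 2 of the 4 day 120 grafts lay within the range of the isolated islets. Myh11 rose at day 60 (mean 6.43 ± 5.59 against 1.38 ± 0.215 FPKM, log2 1.38, SE 0.503, adjusted p = 0.0410) and did not pass at day 120 (4.36 ± 3.74 FPKM, log2 0.90, adjusted p = 0.180). The day 60 call was kept in 9 of 22 alternatives. It was lost without day 60 graft replicate 1 (log2 0.94, adjusted p = 0.0922) or 2 (1.40, 0.0651) and without isolated islet replicate 1 (1.44, 0.0530), 2 (1.33, 0.0890), 3 (1.38, 0.0815) or 4 (1.38, 0.0806). It was lost as well with array weights, where the change was 0.57 (adjusted p = 0.0956), with quantile normalization (0.91, 0.175), with upper-quartile scaling (1.27, 0.0510), with libraries scaled to their sum without hormone and acinar genes (1.08, 0.0676) and with no filter on low genes (1.38, 0.0577). Without isolated islet replicate 1 and day 60 graft replicate 1 together it was 0.99 (adjusted p = 0.122), and 0.69 with array weights besides (0.156).

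Cnn1 encodes calponin 1, an actin-binding protein of mature smooth muscle, and was the lowest of the 10. It was listed at 0.497, 0.970, 0.139 and 0 FPKM in day 60 grafts 1 to 4, at 1.73, 0, 0.277 and 0.307 FPKM in day 120 grafts 1 to 4 and at 0.137, 0.0430, 0.0540 and 0.0820 FPKM in isolated islets 1 to 4. It reached 1 FPKM in a single library, day 120 graft replicate 1, and so was not tested with the other genes. A value of 0 in such a table can be a failed estimate. Exact two-sided permutation tests on log2(FPKM + 1) gave p = 0.257 for day 60 grafts and 0.143 for day 120 grafts, each against isolated islets, and 0.800 between the graft times, or 0.386, 0.386 and 0.800 adjusted over the 3. The smallest p that 4 against 4 libraries allow is 0.0286.

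Among the pericyte genes, Rgs5 rose at both times by the same amount and the others did not pass. Rgs5 encodes a regulator of G protein signalling. Its values were 40.2, 31.8, 22.6 and 31.7 FPKM in day 60 grafts 1 to 4, 36.6, 28.1, 22.4 and 39.9 FPKM in day 120 grafts 1 to 4 and 22.8, 19.8, 18.2 and 15.1 FPKM in isolated islets 1 to 4. Only graft 3 of each time lay within the range of the isolated islets. The mean was 31.6 ± 7.16 FPKM at day 60, 31.7 ± 7.96 at day 120 and 19.0 ± 3.22 in isolated islets (SD, n = 4 each). The log2 change was 0.69 at day 60 (SE 0.220, adjusted p = 0.0229) and 0.69 at day 120 (SE 0.220, adjusted p = 0.0317). Leaving out isolated islet replicate 3 (adjusted p = 0.0575) or 4 (0.0744) ended the first call. It was also lost when libraries were scaled to their sum without hormone and acinar genes (log2 0.30, adjusted p = 0.261). The second was lost in 8 of 23 alternatives, namely without isolated islet replicate 2, 3 or 4 (adjusted p = 0.0689, 0.0795 and 0.102) and without day 120 graft replicate 1, 2 or 4 (0.0795, 0.0548 and 0.0936), with upper-quartile scaling (0.0554) and with the sum without hormone and acinar genes (log2 0.49, adjusted p = 0.102).

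Pdgfrb, the receptor for platelet-derived growth factor B, had 6.95, 2.79, 4.19 and 10.498 FPKM in day 60 grafts 1 to 4. It had 3.20, 2.08, 2.05 and 9.42 FPKM in day 120 grafts 1 to 4, against 2.66, 4.35, 4.25 and 3.64 FPKM in isolated islets 1 to 4. Graft 4 of each time stood highest, and day 120 grafts 2 and 3 were below every isolated islet. The log2 change was 0.48 at day 60 (95% interval -0.39 to 1.35, adjusted p = 0.353) and -0.05 at day 120 (-0.93 to 0.82, adjusted p = 0.929).

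Cspg4 encodes the NG2 proteoglycan of the pericyte surface, and Abcc9 the sulfonylurea receptor 2, a subunit of the potassium channel of vascular mural cells. Cspg4 spanned 0.623 to 3.33 FPKM in day 60 grafts, 0.332 to 1.81 FPKM in day 120 grafts and 0.595 to 0.925 FPKM in isolated islets. Its log2 change was 0.48 at day 60 (95% interval -0.14 to 1.10, adjusted p = 0.187) and 0.14 at day 120 (-0.48 to 0.76, adjusted p = 0.726). Abcc9 had 2.38, 1.78, 1.48 and 2.15 FPKM in day 60 grafts 1 to 4, 1.32, 0.982, 1.04 and 2.52 FPKM in day 120 grafts 1 to 4 and 1.06, 1.32, 1.26 and 0.890 FPKM in isolated islets 1 to 4. All day 60 grafts were above all isolated islets, yet the change of log2 0.46 missed the threshold (95% interval 0.02 to 0.90, adjusted p = 0.0804), and that at day 120 was 0.17 (-0.26 to 0.61, adjusted p = 0.524). At day 60 Cspg4 and Abcc9 each passed in 1 of 22 alternatives. An antisense gene, 5330439B14Rik, overlaps exons of Abcc9 and stood at 0.107 to 1.52 FPKM in day 60 grafts, 0.0790 to 0.441 in day 120 grafts and 0 to 0.137 in isolated islets. As with Tagln, reads of the pair cannot be told apart where they overlap.

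Mcam, an adhesion molecule of pericytes, smooth muscle and endothelium, had 54.5, 7.52, 20.1 and 14.3 FPKM in day 60 grafts 1 to 4. It had 12.01, 5.93, 10.2 and 14.4 FPKM in day 120 grafts 1 to 4, against 6.16, 7.92, 6.60 and 5.86 FPKM in isolated islets 1 to 4. In each graft group all but graft 2 were above every isolated islet. Mcam rose at day 60 (mean 24.1 ± 20.9 against 6.63 ± 0.909 FPKM, log2 1.38, SE 0.443, adjusted p = 0.0245) and did not pass at day 120 (10.6 ± 3.57 FPKM, log2 0.55, adjusted p = 0.345). Without day 60 graft replicate 1 the day 60 change was 0.88 (adjusted p = 0.0301). The day 60 call was kept in 18 of 23 alternatives. It was lost without day 60 graft replicate 3 (adjusted p = 0.0529), without isolated islet replicate 3 (0.0542) or 4 (0.0596) and with quantile normalization (log2 1.06, adjusted p = 0.0544). It was also lost in a fit of the compared groups alone with the replicate number as a block (0.0657), although isolated islets did not pair with grafts by number.

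Des encodes desmin, the intermediate filament of muscle cells. It had 6.19, 2.51, 1.36 and 4.64 FPKM in day 60 grafts 1 to 4, 2.74, 1.38, 1.58 and 4.97 FPKM in day 120 grafts 1 to 4 and 1.64, 0.981, 1.38 and 1.28 FPKM in isolated islets 1 to 4. Grafts 1 and 4 were high at each time, while day 60 graft 3 and day 120 grafts 2 and 3 lay within the range of the isolated islets. The change was log2 0.89 at day 60 (95% interval 0.13 to 1.65, adjusted p = 0.0551) and 0.57 at day 120 (-0.19 to 1.33, adjusted p = 0.224), neither past the threshold. At day 60 it passed in 2 of 22 alternatives, without day 60 graft replicate 3 and without day 120 graft replicate 4.

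Counted together, 4 of the 9 tested genes were higher in day 60 grafts than in isolated islets (44.4%) and none was lower. Of all 13433 tested genes, 43.7% changed in that comparison, 31.3% being higher and 12.3% lower, so a share of this size is near that of all genes and is not a result about mural cell genes. Groups that did not overlap, with day 60 grafts higher, were seen for 3 of the 10 genes and for 22% of all tested genes, with them lower for 0 of the 10 and for 9.01%, and an unadjusted p under 0.05 for 7 of the 9 against 52.5%. At day 120, 2 of 9 genes were higher (22.2%) and none lower, where 31.4% of all genes changed, 24.3% being higher and 7.03% lower. Groups without overlap, with day 120 grafts higher, were seen for 1 of the 10, against 28.3% of all genes, with them lower for 0 of the 10, against 7.24%, and an unadjusted p under 0.05 for 2 of the 9, against 44.8%. Both comparisons rest on the same isolated islets.

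The sizes of the changes give more than their count. The median log2 change of the 9 tested genes was 0.89 at day 60 and 0.55 at day 120, beside 0.27 and 0.30 for all tested genes. With Cnn1, over all 10, it was 0.79 and 0.50. Tagln lay 1.88 above the median of all genes at day 60 and 1.29 above it at day 120. At day 60 all 9 lay above the median of all genes as deposited, and 8 of 9 with quantile normalization. Of these Cspg4 passed the filter only through the grafts, as it ran from 0.595 to 0.925 FPKM in isolated islets. Its place among the 9 therefore favours a higher value in grafts. At day 120, 6 of 9 lay above it under each of the 4 scalings tried. Without isolated islet replicate 1 and day 60 graft replicate 1, Tagln, Rgs5 and Mcam still rose at day 60 and Tagln and Rgs5 at day 120.

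**Figure D2:**
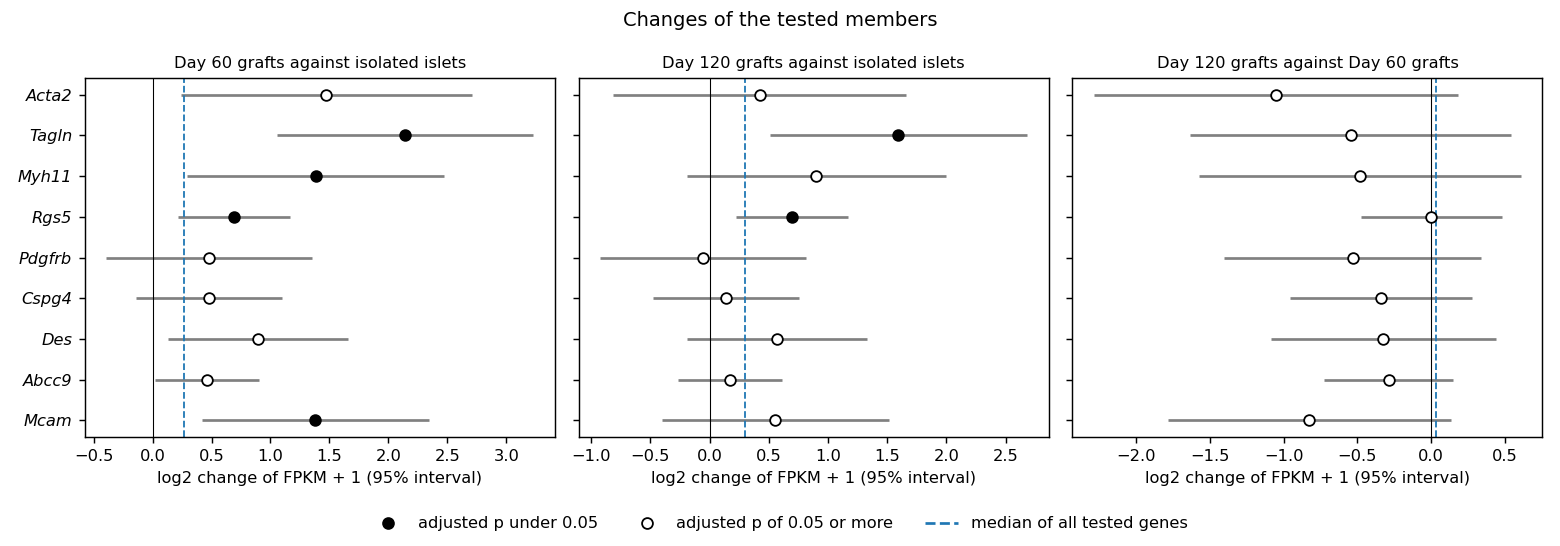
Log2 change of FPKM + 1 of the 9 tested genes in the 3 comparisons, with 95% intervals from limma; filled points have an adjusted p under 0.05 and the dashed line is the median of all 13433 tested genes. Tagln is farthest to the right in both comparisons with isolated islets, and 8 of 9 points lie below 0 in day 120 grafts against day 60 grafts, each with an interval that includes 0.

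Between the graft times none of the 9 genes passed the test, nor did any have an unadjusted p under 0.05. Over all genes 0.0149% were called (0.00744% in each direction) and 10.1% had an unadjusted p under 0.05. Rgs5 was level, with a log2 difference of day 120 from day 60 grafts of 0.00 (95% interval -0.47 to 0.48). The other 8 had negative values, from -1.05 for Acta2 (95% interval -2.29 to 0.18, adjusted p = 0.513) and -0.83 for Mcam (-1.79 to 0.13, adjusted p = 0.511) to -0.29 for Abcc9. The sizes rest in good part on day 60 graft replicate 1. Without it the median of the 9 genes went from -0.48 to -0.14, and that of all tested genes from 0.03 to 0.01. No gene of the 10 had groups that did not overlap, against 2.91% of all genes with day 120 higher and 1.38% with it lower.

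The day 60 and day 120 grafts with the same number resembled each other over all genes, so that the difference can also be read within pairs. Pdgfrb was lower at day 120 in 4 of 4 pairs. Acta2, Tagln, Myh11, Rgs5, Cspg4, Abcc9 and Mcam were lower in 3 of 4, each with pair 4 as the exception, Des in 2 of 4 and Cnn1 in 1 of 4. With the number as a block no gene of the 9 passed, the lowest adjusted p being 0.366 for Acta2 and Pdgfrb.

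The grafts divided by number in which genes were high. In graft 1 of each time the contractile genes stood far above their group mean: Acta2 by log2 1.23 at day 120 and 1.79 at day 60, Tagln by 1.35 and 1.23, and Myh11 by 1.22 and 1.34. In graft 4 Pdgfrb stood above its mean, by 1.21 at day 120 and 0.82 at day 60, while Acta2 was 0.12 above it at day 120 and 1.08 below it at day 60. In grafts 2 and 3 most genes were under their group means. Replicate 1 was the highest library for 4 of the 10 genes at day 120 and 8 at day 60, and replicate 4 for 6 at day 120 and 1, Pdgfrb, at day 60.

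**Figure D3:**
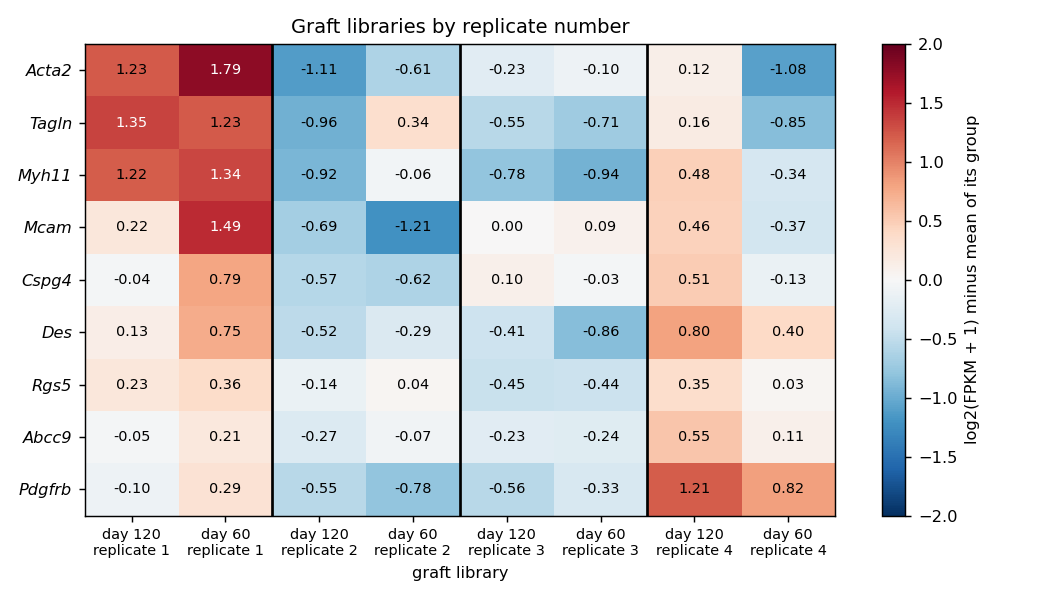
Log2(FPKM + 1) of each graft library minus the mean of its group for the 9 tested genes, with libraries of the same number side by side; red is above and blue below the group mean. Replicates 1 are red for Acta2, Tagln and Myh11 (1.22 to 1.79) and replicates 4 for Pdgfrb (1.21 and 0.82).

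Ratios within a library do not depend on how libraries were scaled. Those over Pdgfrb carry its high values in grafts 4, so low ratios there restate that contrast. Tagln over Pdgfrb was 9.86 in day 120 graft 1 and 6.15 in day 60 graft 1, but 1.41 and 0.889 in grafts 4 of day 120 and day 60, both within the range of isolated islets (0.621 to 1.60). Grafts 2 and 3 lay between 2.48 and 8.10, above all isolated islets. Acta2 over Pdgfrb was 19.9, 9.08, 8.69 and 1.71 in day 60 grafts 1 to 4 and 13.8, 3.82, 7.58 and 2.12 in day 120 grafts 1 to 4, against 2.73 to 4.67 in isolated islets. Both grafts 4 were thus below every isolated islet. Pdgfrb over Rgs5 was 0.331 and 0.236 in grafts 4 of day 60 and day 120, 0.0740 to 0.185 in the other grafts, and 0.117 to 0.241 in isolated islets. Without Pdgfrb, Tagln over Rgs5 was 0.295 and 0.333 in grafts 4 of day 60 and day 120, above every isolated islet (0.137 to 0.224). Day 120 graft 2 (0.199) lay within the range of isolated islets, and the remaining grafts ran from 0.345 to 1.06.

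**Figure D4:**
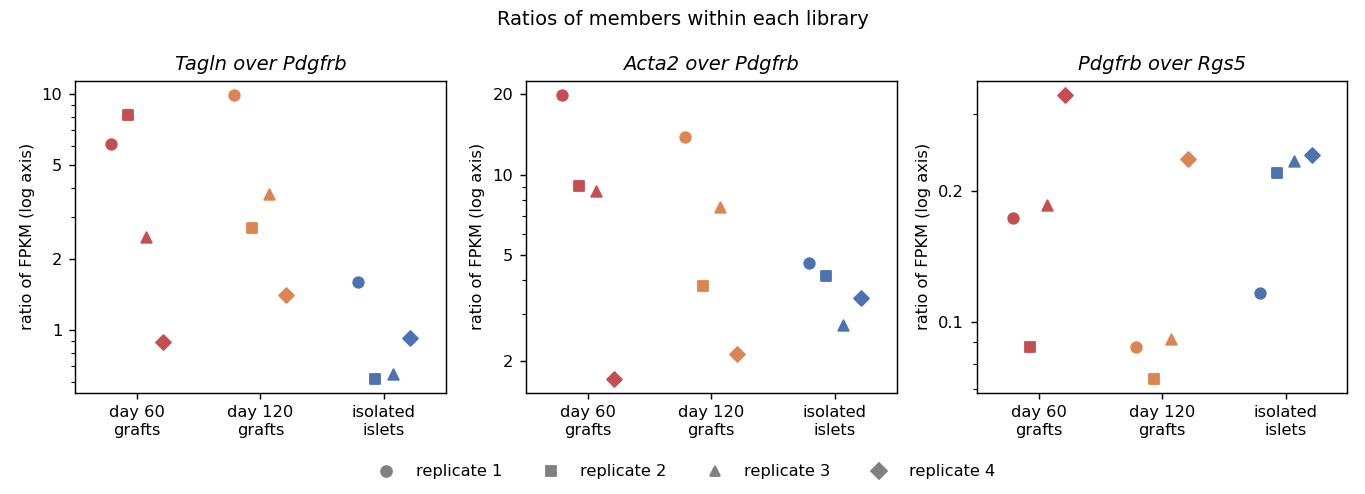
Ratios of FPKM within each library for 3 gene pairs, on log axes that differ between panels; symbols give the replicate number. For Tagln over Pdgfrb all grafts but replicate 4 of each time are above the isolated islets, and for Acta2 over Pdgfrb both replicates 4 (1.71 and 2.12) are below them.

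By deviations from the group means over the 12 libraries, the gene nearest to Tagln was Myh11 (r = 0.94), to Acta2 Tagln (0.84), to Cspg4 Mcam (0.94), to Pdgfrb Abcc9 (0.86), to Des Abcc9 (0.83) and to Rgs5 Des (0.81). The least alike were Tagln and Pdgfrb (r = 0.07). These values are descriptions: all genes share the libraries, their depth and the mix of tissues in them.

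Markers of fibroblasts, adipocytes and macrophages were also higher in the grafts. The 10 fibroblast genes summed to 825 to 6069 FPKM in day 60 grafts, 343 to 842 in day 120 grafts and 20.9 to 28.1 in isolated islets, with 10 of 10 higher at day 60 and 9 of 10 at day 120. The 10 adipocyte genes summed to 307 to 11068 FPKM, 257 to 1042 FPKM and 48.2 to 59.0 FPKM in that order, and the 10 macrophage genes to 460 to 4518, 325 to 548 and 58.6 to 102. Each highest day 60 value was in replicate 1, the library with the most Acta2 and Mcam. At day 120 the highest sums were in different libraries, those of fibroblasts in graft 4, of macrophages in graft 1 and of adipocytes in graft 3 (1042 FPKM, against 1033 in graft 1), where most mural cell genes were under their group mean. Fibroblasts can also express Acta2, Tagln and Pdgfrb, and fat holds Pdgfrb-positive precursor cells. In grafts 4, high in Pdgfrb, the collagen gene Col1a1 stood at 202 FPKM at day 60 and 127 at day 120, against 33.99 to 316 and 21.1 to 29.6 FPKM in the other grafts of each time. It was chosen after its values were seen, and most of the fibroblast list went the other way at day 60. Dcn, Lum, Fbn1, Dpt, Mfap5, Pi16 and Fn1 were lowest in day 60 graft 4 (Dcn 293 FPKM, against 462 to 3284 in the others). Only Col1a2 and Col3a1 were second highest there, like Col1a1. The adipocyte sum was 307 FPKM in day 60 graft 4, the lowest of its group, and 316 FPKM in day 120 graft 4. The part of these tissues in the mural cell values was not tested.

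Most markers of skeletal muscle and myoepithelial cells were too low to be tested, although Acta1 and Oxtr reached higher levels. The glial genes given last do not mark contractile cells and were not low. Of the 10 skeletal muscle genes 7 were too low to be tested, among them the creatine kinase gene Ckm, never above 0.403 FPKM, and the myosin gene Myh4, never above 0.00500 FPKM. Of the 3 tested, the myosin light chain gene Mylpf rose at day 60 (1.73 ± 0.350 against 0.777 ± 0.453 FPKM, log2 0.65, adjusted p = 0.0443 by limma), the glycogen phosphorylase gene Pygm fell at both times (log2 -0.97 and -1.01, adjusted p = 0.00445 and 0.00737) and Acta1 did not pass. The list summed to 5.74 to 43.7 FPKM in day 60 grafts, 5.15 to 8.23 in day 120 grafts and 6.37 to 8.86 in isolated islets, the 43.7 in day 60 graft replicate 1 being nearly all Acta1 (41.3 FPKM). Of the 6 myoepithelial genes the keratin genes Krt5, Krt14 and Krt17 were at 0 in all 8 grafts, and the oxytocin receptor gene Oxtr rose (7.93 ± 3.30 at day 60 and 7.28 ± 0.980 at day 120 against 1.46 ± 0.726 FPKM, adjusted p = 0.000587 and 0.00130 by limma). That list summed to 4.65 to 14.6 FPKM in day 60 grafts, 6.74 to 8.80 in day 120 grafts and 2.32 to 12.6 in isolated islets. The 6 glial genes summed to 20.5 to 41.0, 22.1 to 61.7 and 23.7 to 57.2 FPKM in that order, with 2 higher and 1 lower at day 60 and 1 each way at day 120.

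Endothelial genes mark the inner layer of the same vessels. Of 10 such genes 3 rose and none fell at each time, near the shares over all genes (31.3% higher at day 60 and 24.3% at day 120). With quantile normalization 3 rose at day 60 and none at day 120. Higher genes then made up 45.2% and 45.6% of the calls over all genes, against 71.8% and 77.6% as deposited. The median log2 change was 0.55 at day 60 and 0.33 at day 120, beside 0.27 and 0.30 over all genes. Pecam1, the adhesion molecule CD31, did not pass (34.3 ± 21.7 FPKM in day 60 grafts against 19.9 ± 5.005 in isolated islets, log2 0.62, adjusted p = 0.261). The genes that rose, named after their values were seen, were the clotting factor gene Vwf (log2 2.34 and 1.89, adjusted p = 0.00729 and 0.0283), the tight junction gene Cldn5 (2.54 and 1.60, 0.00456 and 0.0482) and the adhesion gene Esam (1.23 and 1.04, 0.0133 and 0.0376). In isolated islets Vwf ran from 0.076 to 0.691 FPKM and Cldn5 from 0.241 to 0.395, so both passed the filter only through the grafts. The list summed to 309, 129, 120 and 265 FPKM in day 60 grafts 1 to 4 and to 284, 114, 132 and 291 FPKM in day 120 grafts 1 to 4, against 139 to 181 FPKM in isolated islets. Grafts 1 and 4 of each time were thus above, and grafts 2 and 3 below, every isolated islet. The sum of the 10 mural cell genes was likewise higher in grafts 1 and 4 than in grafts 2 and 3 at day 120 (144 and 112 against 53.6 and 63.5 FPKM). At day 60 it was 309 FPKM in graft 1 and 95.8 to 101 in the others, and it ran from 44.7 to 57.2 FPKM in isolated islets.

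A contractile list of 20 further genes was examined. Not all of them encode parts of the contractile apparatus, since Mustn1, Aoc3 and Sncg do not. Of the 20 genes 15 were tested, of which 9 rose and 2 fell at day 60 while 4 rose and 2 fell at day 120. Over all genes 31.3% were higher and 12.3% lower at day 60, and 24.3% and 7.03% at day 120. With quantile normalization 7 rose and 3 fell at day 60, while 2 rose and 3 fell at day 120. Under that scaling the calls over all genes also shifted, 45.2% and 45.6% of them being higher, against 71.8% and 77.6% as deposited. For the 15 the median log2 change was 1.35 and 0.65 (0.92 and 0.29 with quantile normalization). Some of them passed the filter only through the grafts, and over all 20 the median was 0.73 and 0.42. Mustn1, a small nuclear protein of the musculoskeletal system, stood at 11.7 ± 10.2 FPKM in day 60 grafts, 6.33 ± 3.22 in day 120 grafts and 1.07 ± 0.757 in isolated islets (log2 2.36 and 1.80, adjusted p = 0.00298 and 0.0169). Mylk, the myosin light chain kinase, rose by log2 1.87 and 1.19 (adjusted p = 0.00327 and 0.0368), and the actin-binding caldesmon gene Cald1 by 1.59 and 1.21 (0.00415 and 0.0224). At day 120 the Mylk call was kept in 14 of 22 alternatives and the Cald1 call in 18 of 23. The amine oxidase gene Aoc3, also high in fat cells, rose at day 60 (log2 3.02, adjusted p = 0.00370) and not at day 120 (1.59, 0.0747). Sncg, outside the naming rule, had the largest day 60 change of the list (log2 3.51, adjusted p = 0.0166 by limma). It did not pass at day 120 (1.82, 0.180). Its highest value, 1149 FPKM, was in day 60 graft replicate 1, the library with the highest adipocyte sum.

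Vcl, the focal adhesion protein vinculin, was at 11.2 ± 7.15 FPKM in day 60 grafts, 6.55 ± 1.53 in day 120 grafts and 24.5 ± 9.03 in isolated islets (log2 -1.13 and -1.69, adjusted p = 0.0257 and 0.00776). Its call was lost at day 60 in 7 of 23 alternatives and in none at day 120. The tropomyosin gene Tpm1 fell at day 120 (37.1 ± 6.23 against 67.0 ± 12.6 FPKM, log2 -0.83, adjusted p = 0.0160) and did not pass at day 60 (48.4 ± 13.96 FPKM, log2 -0.48, adjusted p = 0.0905). Also outside the naming rule, and chosen after their values were seen, are Ppp1r12b and Myl9. Ppp1r12b, a subunit of myosin phosphatase, fell at day 60 (log2 -0.71, adjusted p = 0.0274). Myl9, the smooth muscle myosin regulatory light chain, stood at 63.9, 19.0, 11.4 and 17.8 FPKM in day 60 grafts 1 to 4, 76.5, 6.06, 11.3 and 18.6 FPKM in day 120 grafts 1 to 4 and 1.74 to 4.27 FPKM in isolated islets. Grafts 1 were highest, as for Tagln, and it rose at both times (log2 2.49 and 2.19, adjusted p = 0.0101 and 0.0262).

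Of 20 further pericyte genes 19 were tested, with 11 higher and 1 lower at day 60 and 5 higher and none lower at day 120. Over all genes 31.3% were higher at day 60 and 24.3% at day 120. With quantile normalization 5 were higher and 1 lower at day 60, and 2 higher and 1 lower at day 120. Of the calls over all genes 45.2% and 45.6% were then higher, against 71.8% and 77.6% as deposited. The median log2 change was 0.68 and 0.67, and 0.27 and 0.20 with quantile normalization. Over all 20 it was 0.66 and 0.64. Aspn, the matrix protein asporin, rose at both times (log2 3.09 and 1.93, adjusted p = 0.00109 and 0.0164), as did Anpep, aminopeptidase N, at 37.2 ± 12.8 FPKM in day 60 grafts and 52.7 ± 12.5 in day 120 grafts against 22.3 ± 4.83 in isolated islets (log2 0.68 and 1.20, adjusted p = 0.0381 and 0.00575). The Anpep call was kept in 12 of 23 alternatives at day 60 and in all 23 at day 120. Art3 (log2 2.40, adjusted p = 0.00318), the integrin gene Itga7 (2.19, 0.00573) and the guanylate cyclase gene Gucy1a3 (1.01, 0.00849) rose at day 60, and their day 120 values missed the threshold, at 1.29 (0.0644), 1.12 (0.109) and 0.60 (0.0902). The metalloreductase gene Steap4 rose at day 60 (2.62, 0.00398) and just passed at day 120 (1.58, 0.04996), a call kept in 11 of 23 alternatives. Aspn is also made by fibroblasts and Steap4 by fat cells. Aspn, Art3, Steap4 and Itga7 were highest in day 60 graft replicate 1, at 66.8, 58.6, 72.9 and 22.9 FPKM.

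Outside the naming rule, Higd1b and Ndufa4l2 completed the 5 genes higher at day 120 (log2 1.05 and 1.46, adjusted p = 0.0275 and 0.0360; at day 60 1.23 and 1.75, 0.00910 and 0.0115). Rgs4, a relative of Rgs5, was the 1 that fell at day 60 (-0.82, 0.0390).

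Several genes of the pericyte list, and the transcription regulator Heyl, were high in grafts 4 with Pdgfrb and were chosen after their values were seen. Notch3, the mural cell Notch receptor, had 6.62 FPKM in day 60 graft 4 and 6.60 in day 120 graft 4, against 1.85 to 3.86 FPKM in the other grafts. Its target Heyl had 4.86 and 3.67 FPKM there, against 0.868 to 1.70 FPKM. The vitronectin gene Vtn had 12.5 and 14.4 FPKM, against 1.83 to 5.14 FPKM, and the potassium channel gene Kcnj8, whose product pairs with that of Abcc9, had 3.07 and 2.11 FPKM, against 0.548 to 2.49 FPKM.

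Genes of mural cell recruitment passed the threshold in both directions at day 60. Of 18 tested, 5 rose and 3 fell at day 60 and 2 rose and none fell at day 120. Over all genes 31.3% rose and 12.3% fell at day 60, near the shares of this list, and 24.3% and 7.03% at day 120. With quantile normalization 2 were higher and 4 lower at day 60, and 0 higher and 2 lower at day 120. The balance over all genes turned likewise, with higher genes making up 45.2% and 45.6% of all calls, against 71.8% and 77.6% as deposited. The median log2 change was 0.49 at day 60 and 0.34 at day 120, where it turned to -0.07 with quantile normalization. The ligand gene of Pdgfrb, Pdgfb, was outside the naming rule and did not pass (5.002 ± 1.52 FPKM in day 60 grafts, 3.89 ± 1.37 in day 120 grafts and 3.24 ± 0.388 in isolated islets, log2 0.47 and 0.17, adjusted p = 0.112 and 0.589). Pdgfa fell at day 60 (11.6 ± 1.81 against 19.6 ± 3.89 FPKM, log2 -0.70, adjusted p = 0.0119). Its receptor gene Pdgfra, which marks fibroblasts and fat precursors, rose at both times (4.70 ± 3.68 FPKM in day 60 grafts and 1.85 ± 0.706 in day 120 grafts against 0.152 ± 0.0401 in isolated islets, log2 2.12 and 1.28, adjusted p = 0.000716 and 0.0136). Pdgfra passed the filter only through the grafts.

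The transforming growth factor receptor genes went opposite ways at day 60, with Tgfbr2 at log2 1.80 (adjusted p = 0.00553) and Tgfbr1 at -0.57 (0.0140), and neither passed at day 120 (0.97, 0.0945 and -0.31, 0.154). The angiopoietin receptor gene Tek rose at day 60 (1.40, 0.0107) and missed the threshold at day 120 (1.02, 0.0540). Outside the rule, the Notch ligand gene Jag1 rose at day 60 (0.90, 0.0221) and the growth factor gene Hbegf fell (5.74 ± 2.22 against 17.2 ± 16.1 FPKM, -1.18, 0.0462). The Notch ligand gene Dll4 was past the threshold at both times (0.51, 0.0477 and 0.67, 0.0226), in 4 of 23 alternatives at day 60 and in 17 of 23 at day 120.

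Among the listed transcription regulators Srf had the smallest p, and it fell. Srf encodes serum response factor, which binds CArG boxes in contractile genes and in genes induced by serum and stress. It was at 6.45, 5.26, 6.83 and 9.52 FPKM in day 60 grafts 1 to 4, 7.94, 9.03, 7.10 and 11.9 FPKM in day 120 grafts 1 to 4 and 37.4, 55.9, 44.8 and 35.6 FPKM in isolated islets 1 to 4. Every graft was below every isolated islet. In isolated islets Srf stood above all 10 mural cell genes, of which Rgs5 reached the most at 22.8 FPKM. Which cells the Srf RNA came from cannot be told in bulk RNA, so its fall cannot be placed in mural cells. The same limit holds for the other listed genes that fell, such as Vcl, Tpm1 and Gata6. The change was log2 -2.47 at day 60 and -2.15 at day 120 (adjusted p = 1.04e-05 and 4.10e-05), and both calls were kept in all 23 alternatives. Its coactivator gene Myocd, myocardin, was not tested and did not exceed 0.212 FPKM in any library.

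Of 18 regulators 12 were tested, with 5 higher and 2 lower at day 60 and 3 higher and 2 lower at day 120. Over all genes 31.3% were higher and 12.3% lower at day 60, and 24.3% and 7.03% at day 120. With quantile normalization 3 were higher and 3 lower at day 60, and 0 higher and 3 lower at day 120. Higher genes were then 45.2% and 45.6% of the calls over all genes, against 71.8% and 77.6% as deposited. For the 12 the median log2 change was 0.61 at day 60 and 0.38 at day 120, where it turned to -0.08 with quantile normalization. Some of them passed the filter only through the grafts, and over all 18 the median was 0.38 and 0.17. The homeobox gene Meox2 (log2 1.87 and 1.25, adjusted p = 0.00179 and 0.0184) and the muscle regulator Mef2c (1.301 and 1.05, 0.00190 and 0.00963) rose at both times. Ebf1 (1.60, 0.00641) and Nr2f2, a regulator of venous identity (1.18, 0.0273), rose at day 60 and did not pass at day 120 (0.90, 0.0895 and 0.78, 0.134). The Nr2f2 call was kept in 15 of 22 alternatives. Hey2, a Notch target outside the rule, rose at both (0.70 and 0.76, 0.0474 and 0.0449). Gata6 fell at both times (-0.95 and -1.07, 0.00723 and 0.00784).

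**Figure D5:**
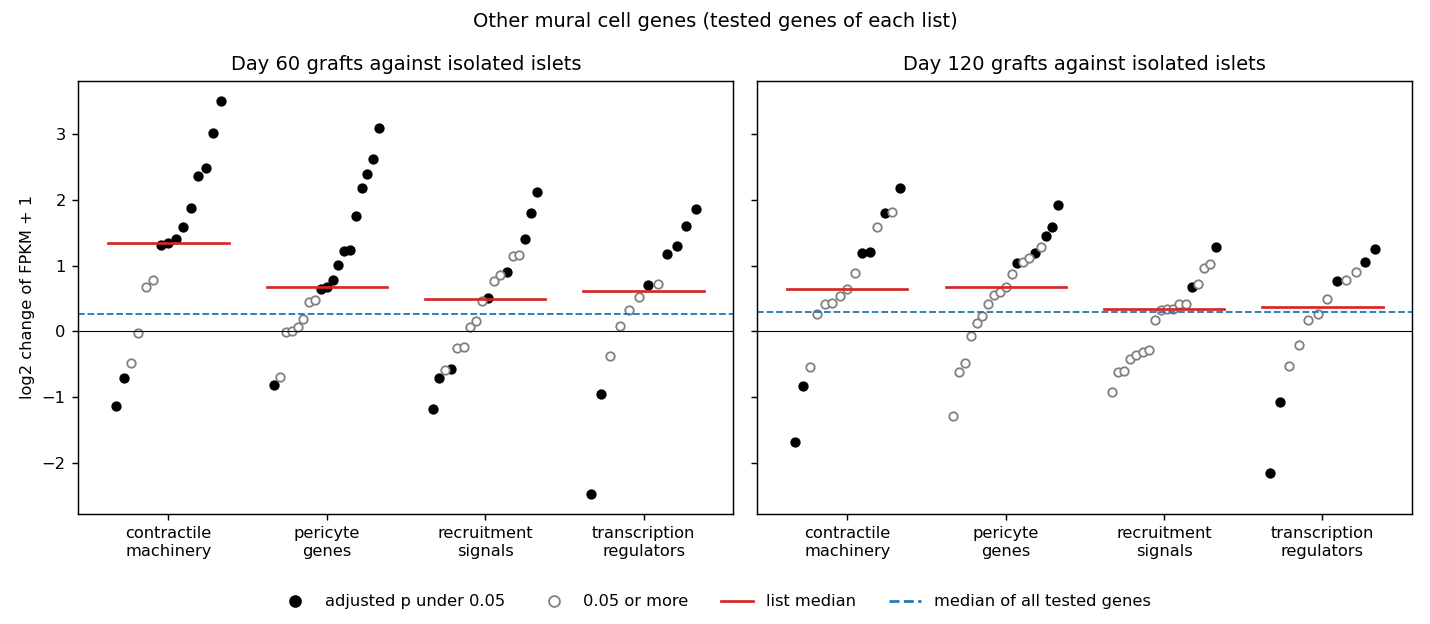
Log2 change of FPKM + 1 of the tested genes of 4 further lists in day 60 grafts and in day 120 grafts, each against isolated islets; filled points have an adjusted p under 0.05, red lines are list medians and the dashed line is the median of all tested genes. The lowest point of the regulators is Srf (-2.47 and -2.15), while the contractile list has its median at 1.35 at day 60 and 0.65 at day 120.

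Of the genes in the further lists, only Srf itself, Vcl and Myl9 had their promoters examined by name. They were picked because they differed between grafts and isolated islets in opposite directions. CArG boxes without a mismatch stood in the promoters of all of them. Capitals mark the box.
Srf, 82 bases before the start: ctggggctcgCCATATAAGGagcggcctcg
Srf, 62 bases before the start: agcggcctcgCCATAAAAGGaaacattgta
Vcl, 227 bases before the start: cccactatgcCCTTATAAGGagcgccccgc
Myl9, 161 bases before the start: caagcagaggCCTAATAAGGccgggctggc

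Srf and Vcl, with such a box, were lower in grafts than in isolated islets and Myl9, also with such a box, was higher. These opposite directions follow from the choice of genes. Whether such a box goes with either direction among the other contractile genes was not tested. The promoters of Tagln, Myh11 and Pdgfrb are not shown.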

How the data were processed

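The authors deposited 1 table of FPKM values, with 1 row per gene symbol and 1 column for each of the 12 libraries. TopHat2, Cufflinks 2.1.1 and mm9 are named per the submitters' processing notes; annotation, strand setting and scaling between libraries are not given in the sources used here. The table held 0 columns of other samples.

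The value analysed was log2(FPKM + 1). A gene was tested if it had at least 1 FPKM in at least 4 libraries (13433 of 23234; 9801 were left out). One limma model (3.58.1, in R 4.3.3, with statmod 1.5.0) covered the 12 libraries, with a term for group, prior variances that follow the mean and robust shrinkage. Two-sided p-values were adjusted by the Benjamini-Hochberg method over every gene tested and called under 0.05; 95% intervals come from the same model. It was tested on simulated data.

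The 10 genes and all gene lists were chosen with earlier results of these data known. Named from 4 mural cell lists were up to 6 genes past the threshold in either comparison with isolated islets, in order of their smaller p; others were chosen after their values were seen. Day 60 and day 120 grafts of equal number deviated together from their group means over the tested genes (r = 0.402, 0.442, 0.180 and 0.230) and were treated as pairs in the blocked alternative; isolated islets did not pair with either (r from -0.0784 to 0.0199). Each blocked fit used only the groups compared. Against isolated islets the block is therefore an arbitrary pairing, and its results there say little on robustness. Alternatives changed the added value, filter, scaling, library weights, block and libraries.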

Additional observations from a re-analysis of the deposited data

Results flagged for a closer look

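In 3 of the 30 sets of 4 libraries examined (10 genes in 3 groups), a single library stood farther from the others than Dixon's test at the 95% level allows. By chance about 1 set in 20 passes it.

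Acta2 reached 138 FPKM in day 60 graft replicate 1, where the next day 60 graft was at 36.4 FPKM. That library also had the highest fibroblast, adipocyte and macrophage sums (6069, 11068 and 4518 FPKM).

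Acta2 was at 18.1 FPKM in isolated islet replicate 2, against 12.5 FPKM or less in the other isolated islets.

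Pdgfrb was at 9.42 FPKM in day 120 graft replicate 4, against 3.20 FPKM or less in the other day 120 grafts. The day 60 graft with the same number was also the highest of its group for Pdgfrb, at 10.498 FPKM.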

How the results depend on the processing

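The number of the 9 tested genes called at day 60 was 4 as deposited. It was 2 after scaling to the sum less hormone and acinar genes (here the reduced sum), 2 with quantile normalization, 3 with the replicate number as a block, and 1 to 6 when a library was left out, with 1 without isolated islet replicate 3 or 4 and 6 without day 120 graft replicate 4. At day 120 it was 2 as deposited, 1 with upper-quartile scaling, 1 with the reduced sum, 1 with quantile normalization and 0 to 2 when a library was left out. Day 120 against day 60 it was 0, but 2 with array weights (Acta2 -1.22, adjusted p = 0.0289, and Mcam -1.03, adjusted p = 0.00645, by limma), whose estimation stopped before convergence. With array weights and without isolated islet replicate 1 and day 60 graft replicate 1, chosen after seeing the data, it was 0. The block left 2 genes called at day 120 and 0 between the graft times.

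Over all genes the calls were 5865 at day 60 (10359 with array weights, 8936 with these without the 2 libraries, 3574 with the block), 4212 at day 120 (1839 to 6004 when a library was left out, 8943 with array weights, 8630 with these without the 2 libraries, 7437 without the 2 libraries) and 2 between the graft times (2874 with array weights, 52 with these without the 2 libraries, 4 without a filter, 20 without day 60 graft replicate 4, otherwise 1 to 3). Higher genes made up 71.8% of the calls at day 60 and 77.6% at day 120, against 60.6% and 63.8% with upper-quartile scaling, 45.4% and 59.6% with the reduced sum and 45.2% and 45.6% with quantile normalization. The median log2 change of all genes was 0.27 and 0.30 as deposited, 0.13 and 0.17, -0.06 and 0.12, and -0.04 and 0.02 in the same order.

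Some small values changed sign. With quantile normalization Cspg4 was -0.0305 and Abcc9 -0.0440 at day 60, and both -0.31 at day 120. Between the graft times, array weights gave Myh11 0.0613, Des 0.30, Mef2c 0.145, Gata6 0.0848 and Nr2f2 0.0776, and with the 2 libraries also left out Des was 0.13, Mef2c 0.0687 and Gata6 0.0551, and Acta2 at day 120 was -0.0112. Gata6 was 0.0152 with the reduced sum, and Tek 0.0356 without the 2 libraries. With a library left out, the day 120 value ran from -0.46 to 0.13 for Pdgfrb, -0.0296 to 0.33 for Cspg4 and -0.0105 to 0.26 for Abcc9, and the value between the graft times from -0.14 to 0.15 for Rgs5 and -0.58 to 0.0356 for Tek. The causes were not tested.

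The table gives no read counts, so counting error could not be set beside these values, and genes near 1 FPKM such as Cspg4, Abcc9 and Cnn1 are the least certain.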

Other observations

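Over the 12 libraries, the tested genes whose log2(FPKM + 1) was most like the mean of the 9 tested mural cell genes were Serpine2 (r = 0.98), C2 (0.98), Lamb2 (0.97), Hoxb7 (0.97), Afap1l2 (0.97), Adcy4 (0.97), Rftn2 (0.96) and Sema3b (0.96), where the median over all tested genes was 0.21. Lamb2, a laminin chain of vascular basement membranes, averaged 13.2 FPKM in day 60 grafts, 7.25 in day 120 grafts and 3.38 in isolated islets, and the serpin gene Serpine2 averaged 13.2, 7.79 and 4.602 FPKM in that order. The complement gene C2 averaged 10.6 FPKM in day 60 grafts, 4.76 in day 120 grafts and 1.28 in isolated islets. These correlations are descriptions with no test, since all genes share the libraries, their depth and their mix of tissues.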
